A study of Mus musculus with 12 samples.

Results

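The Xlr (X-linked lymphocyte-regulated) family is a cluster of multicopy genes on the mouse X chromosome. The family was taken here as 9 named genes, Xlr3a, Xlr3b, Xlr4a, Xlr4b, Xlr4c, Xlr5a, Xlr5b, Xlr5c and DXBay18, and every array probe carrying one of these names was kept. This gave 13 probes of 8 genes, out of 22985 genes with a name and 55681 probes that are not controls. No probe carried the name Xlr4c, although 2 probes named Xlr4a also listed its transcript. The members were chosen by their low signal in the induced pluripotent stem cell samples labelled Tbx3-null, so their values in those cells are given as a description without a test. That choice did not rest on the embryonic stem cell samples, which were tested. It was made with earlier results of these data known, so their test may not be fully independent of it.

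RNA from 12 mouse samples was measured on Agilent one-colour arrays, 1 array a sample. TBX3 is a T-box transcription factor that helps mouse pluripotent cells renew themselves. Mouse embryonic stem cells (mESC) were represented by 4 samples labelled Tbx3-low and 4 labelled Tbx3-high, and induced pluripotent stem cells (iPSC) by 2 labelled Tbx3 null and 2 labelled Tbx3 wildtype. The labels name no agent, no strain, sex or passage, and no allele other than that of Tbx3. The sources used here do not state how the high and low cells were obtained, what the null allele lacks or whether the null samples are 1 clone.

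Xlr proteins are nuclear proteins related in sequence to SYCP3, a structural protein of the synaptonemal complex that pairs meiotic chromosomes. In mouse spermatocytes XLR3 protein gathers on the XY body, the chromatin domain in which the sex chromosomes are silenced. In the mouse brain Xlr3b, Xlr4b and Xlr4c are imprinted and expressed mainly from the maternal X chromosome. DXBay18 is described in the array annotation only as a DNA segment, and no role is given for it here.

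A level below is the log2 of a probe's processed signal minus the 75th percentile of its array, so 0 is the 75th percentile and a difference of 1 is a doubling. Levels are set against each other only within a probe. Between 55.9% and 64.8% of spots were well above background on the mESC arrays, 68.0% and 68.6% on the wild-type iPSC arrays and 62.4% and 63.0% on the null-labelled ones, and 0 spots were saturated. The number of arrays limits the precision. Nothing in the labels ties the arrays of 1 group to separate cultures, and every SD and p-value below reflects only how far these samples lie apart, which may be technical. All 10 pluripotent cell markers, Pou5f1, Nanog and Sox2 among them, were well above background on every array. The mESC and the iPSC lay on separate slides and cell type and slide cannot be told apart, so levels of the mESC and iPSC stand side by side without a comparison. The single Tbx3 probe stood at 5.72 to 5.76 on the Tbx3-low and at 7.03 to 7.12 on the Tbx3-high arrays. It averaged 5.17 on the wild-type iPSC arrays (SD 0.25, n = 2) and read 5.51 and 5.48 on the null-labelled ones. It was thus not lower under the null label, and the fit put it 0.32 higher there (SE 0.11, limma adjusted p = 0.0482). That call was lost under 5 of 7 alternative settings, and with 1 array left out the difference ran from 0.15 to 0.50. The directions below rest on the null label.

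The 13 probes lie within 212 kb of the X chromosome, chrX:70319816-70532113 in the mm9 positions of the array annotation. They are 60 bases long and were designed to copies of one another's genes, which limits which copy a signal can be credited to. The Xlr3a probe, the Xlr5a probe and Xlr5c probe 1 each listed the transcript of 1 gene. Both Xlr3b probes listed Xlr3a, Xlr3b and Xlr3c, Xlr4a probe 2 listed Xlr4a, Xlr4b and Xlr4c, and Xlr5c probe 2 listed Xlr5a, Xlr5b and Xlr5c. Xlr4a probe 1 listed Xlr4a and Xlr4c, the Xlr4b probe listed Xlr4a and Xlr4b, and the Xlr5b probe listed Xlr5a and Xlr5b. The 3 DXBay18 probes listed DXBay18 with Gm14685, Gm5640 and Gm5936. Of the 78 pairs of member probes, 2 shared a run of at least 20 identical bases and no other pair shared more than 8. The first pair joins an Xlr4 and an Xlr3 probe and is shown because their signals overlap in sequence. Capitals mark the 37 bases that Xlr4a probe 1 (chrX:70319816-70319875, minus strand) and Xlr3b probe 2 (chrX:70448087-70448146, plus strand) share, and the 26 bases that a probe without a gene name, A_55_P2046092 (chrX:71979593-71979652, plus strand), shares with Xlr4a probe 1.
Xlr4a probe 1: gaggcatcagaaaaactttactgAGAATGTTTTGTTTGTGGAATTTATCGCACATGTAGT
Xlr3b probe 2: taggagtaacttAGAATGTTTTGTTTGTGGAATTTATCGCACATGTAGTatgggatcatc
A_55_P2046092: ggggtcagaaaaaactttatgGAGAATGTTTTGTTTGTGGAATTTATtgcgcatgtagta

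The second pair consists of overlapping probes at the same DXBay18 site (chrX:70382596-70382654 and chrX:70382605-70382664, minus strand). It is shown with the probe of Gm5640 (chrX:71884458-71884517, minus strand), which lies in another part of the X chromosome. Capitals mark the 29 bases of the longest run shared by DXBay18 probes 1 and 2, and in Gm5640 the 22 bases shared with DXBay18 probe 2. Further shared bases are left in lower case. The run that Gm5640 shares with DXBay18 probe 1 is 31 bases long, and DXBay18 probes 1 and 2 also match before the capitals.
DXBay18 probe 1: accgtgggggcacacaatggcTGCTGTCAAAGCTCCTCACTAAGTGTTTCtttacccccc
DXBay18 probe 2: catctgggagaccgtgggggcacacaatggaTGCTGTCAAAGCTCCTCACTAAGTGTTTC
Gm5640: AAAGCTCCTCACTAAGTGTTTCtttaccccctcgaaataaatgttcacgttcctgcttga

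The probes of the Xlr3a, Xlr4b and Xlr5b genes share no such run with another member, and are shown as a member that passed the mESC test, a member of the Xlr4 subfamily and a member of the Xlr5 subfamily (chrX:70337114-70337173, minus strand, chrX:70467477-70467536, plus strand, and chrX:70403373-70403432, plus strand). They have no capitals.
Xlr3a probe 1: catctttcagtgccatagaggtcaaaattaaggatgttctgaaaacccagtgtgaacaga
Xlr4b probe 1: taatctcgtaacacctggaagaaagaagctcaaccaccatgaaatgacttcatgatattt
Xlr5b probe 1: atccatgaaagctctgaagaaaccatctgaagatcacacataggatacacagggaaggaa

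In the iPSC, every one of the 13 probes was lower on both null-labelled arrays than on both wild-type arrays, and all 13 were well above background on all 8 mESC arrays and on both wild-type iPSC arrays. Nothing is read from this count, since the contrast chose the family; among the 36713 probes tested, 29.6% had both null-labelled arrays below both wild-type arrays. The log2 differences ran from -3.72 to -8.71 with a median of -6.34. That median was -4.18 with normexp background correction and -4.43 with the deposited series values. On the null-labelled arrays 5 of the 13 probes were well above background on both arrays, 2 on 1 of 2 arrays and 6 on no array, and with those 6 at their bounds the median was -5.93. Of all probes tested, 5.24% were well above background on no null-labelled array, 12.9% were called lower in the fit, and 0.932% were at least 8-fold lower. In a bulk sample, fewer cells expressing the family and less RNA in each cell cannot be told apart.

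**Figure D1:**
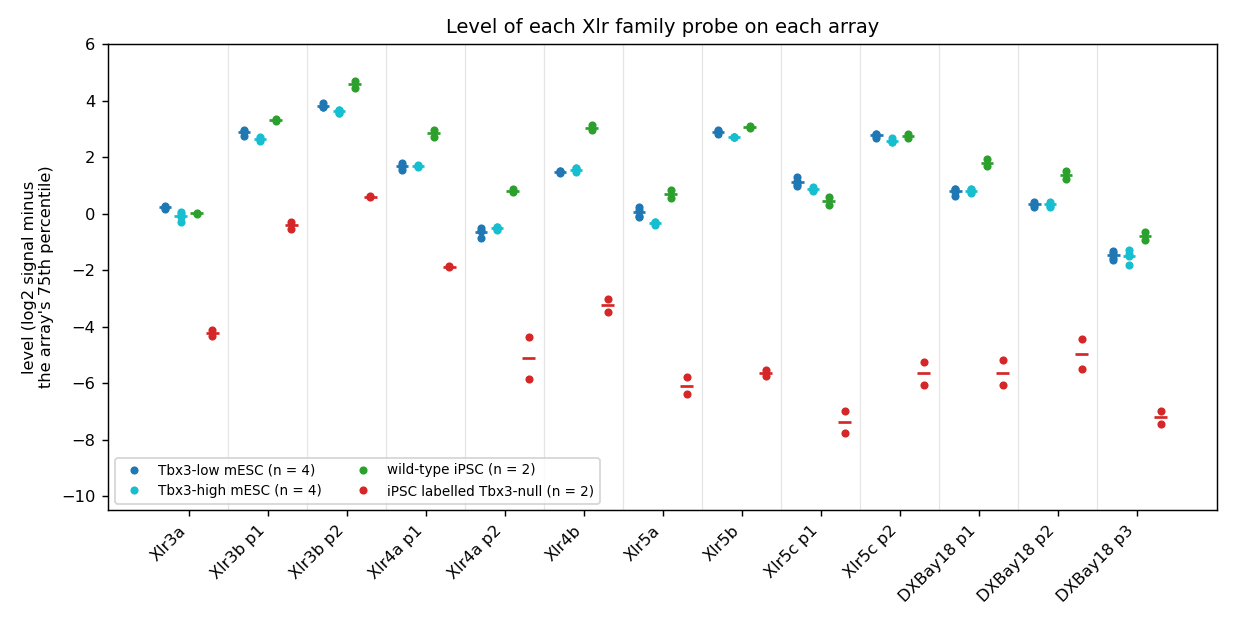
Level of each of the 13 Xlr family probes on each of the 12 arrays (y axis, log2 signal minus the 75th percentile of the array; x axis, probes, p1 to p3 being the probe number). Points are arrays, short lines are group means, and colours are the 4 groups. In every column the 2 null-labelled iPSC arrays lie below the 2 wild-type iPSC arrays, and the Tbx3-high and Tbx3-low mESC arrays lie close together. Null-labelled points of the Xlr5 probes and of DXBay18 p1 and p3 were not well above background and give no level.

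In the fit reported, the 3 probes of the Xlr3 genes had the smallest differences. They kept a signal well above background on both null-labelled arrays. The order depended on the processing: over the alternatives the smallest difference was -2.87 at DXBay18 probe 3 and -2.94 at the Xlr3a probe. Xlr3b probe 2 read 4.69 and 4.45 on the wild-type and 0.58 and 0.61 on the null-labelled arrays, a difference of -3.98. Xlr3b probe 1 read 3.33 and 3.27 against -0.28 and -0.56, a difference of -3.72. The Xlr3a probe read 0.00 on average on the wild-type arrays (SD 0.01, n = 2) against -4.33 and -4.12, a difference of -4.23. These correspond to 15.7-fold, 13.2-fold and 18.8-fold lower signals, and both null-labelled arrays lay far below both wild-type arrays for each probe.

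The 3 Xlr4 probes differed by more and less evenly. Xlr4a probe 1 read 2.95 and 2.72 on the wild-type arrays and -1.91 and -1.87 on the null-labelled ones, a difference of -4.72. The Xlr4b probe read 3.12 and 2.95 against -3.47 and -3.02, a difference of -6.28 or 77.9-fold. Xlr4a probe 2 read 0.86 and 0.76 against -5.87 and -4.37, and was well above background on 1 of the 2 null-labelled arrays. Both Xlr4a probes list the Xlr4a transcript, and their differences were -4.72 and -5.93. Their order turned with normexp background correction (-4.29 and -4.09), and probe 2 ran from -6.68 to -5.18 when 1 array was left out. Xlr4a probe 1 shares 37 bases with Xlr3b probe 2, and the part of Xlr3 transcripts in its signal was not tested.

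The 4 Xlr5 probes were not well above background on either null-labelled array, so their folds are lower bounds taken against the lowest signal well above background on each array. The Xlr5b probe read 3.09 and 3.04 on the wild-type and -5.54 and -5.75 on the null-labelled arrays, at least 352-fold lower. Xlr5c probe 2 read 2.81 and 2.66 against -6.06 and -5.24, at least 280-fold lower. Xlr5c probe 1 read 0.59 and 0.30 against -7.75 and -6.99, at least 57.5-fold lower, and the Xlr5a probe read 0.84 and 0.56 against -6.37 and -5.80, at least 68.5-fold lower. The size of these bounds follows the brightness of the probe in wild-type cells, since the dim side is the same floor, and they do not rank the Xlr5 genes.

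The 3 DXBay18 probes were likewise at or near background under the null label. DXBay18 probe 1 read 1.91 and 1.68 on the wild-type and -6.07 and -5.19 on the null-labelled arrays, at least 144-fold lower. DXBay18 probe 2, which overlaps it, averaged 1.36 on the wild-type arrays (SD 0.20, n = 2) against -4.45 and -5.50 and was well above background on 1 null-labelled array. DXBay18 probe 3 read -0.64 and -0.94 against -6.97 and -7.44, at least 24.4-fold lower.

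Genes outside the family were tested beside it on the X chromosome. Within 1 Mb on each side, 38 genes outside the family were tested in the iPSC, of which 7 were higher and 6 lower under the null label at a limma adjusted p under 0.05, with a median of 0.13. Over all genes tested, 19.9% were called higher and 15.4% lower. On the side of Xlr4a, Pnma3 (6.83 kb away) fell from 0.65 and 0.52 to -0.47 and -0.36 (limma adjusted p = 0.000484) and Pnma5 (40.4 kb away) fell by 0.82 (SE 0.09, limma adjusted p = 0.000121); both belong to the paraneoplastic Ma antigen family. Zfp185, a LIM domain protein gene 43.0 kb away, differed by -0.23 (limma adjusted p = 0.274). On the side of Xlr5c, the zinc finger gene Zfp275 (71.8 kb away) differed by -0.03, and Zfp92 (140 kb away) by -0.90, with limma adjusted p of 0.858 and 0.0573. The exonuclease gene Trex2 (147 kb away) read -4.48 and -5.44 on the wild-type and -5.06 and -2.47 on the null-labelled arrays, which overlapped (limma adjusted p = 0.337). Srpk3, a kinase gene, was well above background on neither null-labelled array and was at least 2.34-fold lower (limma adjusted p = 0.00495), a bound that does not set it below or above the members. Inside the cluster, 1 probe without a gene name, A_55_P2019949 (chrX:70322551-70322610), read -4.44 and -4.56 on the wild-type arrays, was well above background on neither null-labelled array and was at least 1.86-fold lower (limma adjusted p = 0.00208).

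A further group of low signals lay 1352 kb beyond the last member, at relatives of the member probes. Gm5640 (chrX:71884458-71884517) and Gm5936 (chrX:72088649-72088708), whose transcripts the DXBay18 probes list, and A_55_P2046092 (chrX:71979593-71979652), whose bases overlap Xlr4a probe 1, are the 3 probes related to members by listed transcript or shared run. Gm5640 read 1.87 and 1.56 on the wild-type and -3.42 and -2.91 on the null-labelled arrays. Gm5936 read 1.71 and 1.48 against -3.60 and -3.50. A_55_P2046092 read -0.37 and -0.51 against -7.33 and -7.44, at least 31.1-fold lower. The longest run that Gm5936 shares with a member probe is 17 bases, and binding of the same transcripts was not measured. Since it is possible, the 3 probes are not taken as independent measurements of the cluster. A window from 200 kb before to 200 kb after the 3 probes was chosen after their values were seen. In it 7 of 15 probes tested were at least 8-fold lower on the fitted scale, against 0.932% of all probes tested. Nothing is read from this count, since the 3 probes that set the window are among the 7. Besides those 3 they were 2 probes of Ctag2l1 and 1 of Ctag2l2, genes of the cancer/testis antigen 2 type (-3.06, -3.51 and -3.45, the second of them dim under the null label), and A_55_P2000595 without a gene name (-4.54). Other genes of that window, Ikbkg and Gab3, had differences of -0.04 and -0.15 and of 0.19 and -0.88 at 2 probes each, none past the threshold in limma.

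**Figure D2:**
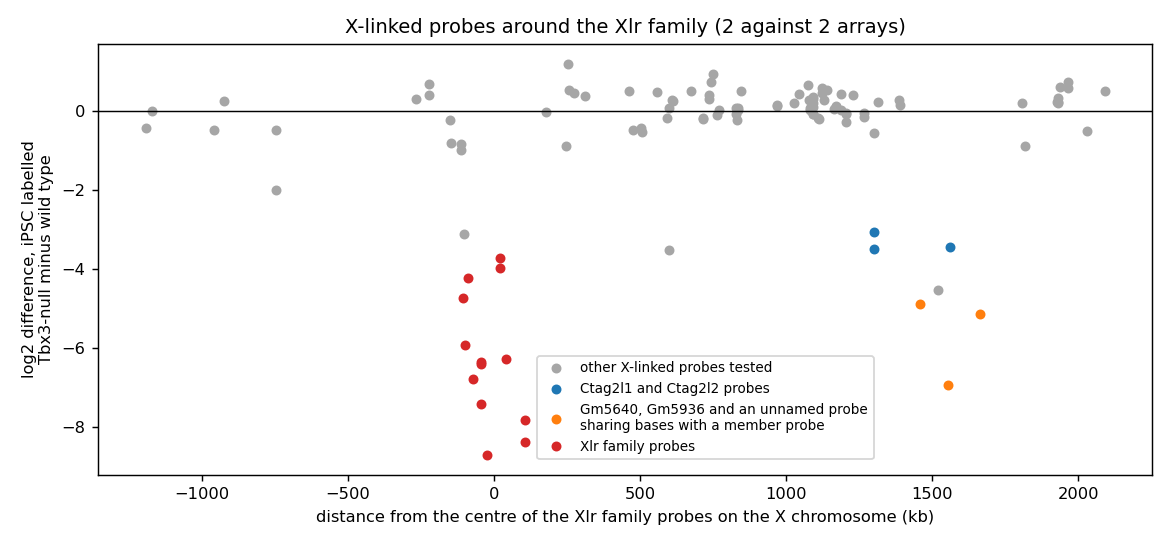
Log2 difference between the null-labelled and the wild-type iPSC (y axis, 2 against 2 arrays) of the X-linked probes tested around the family. The x axis is the distance from the centre of the family, from -1192 to 2090 kb. Probes elsewhere on the X chromosome are not shown. Xlr family probes reach down to -8.71, and a second group of low probes, with Gm5640, Gm5936 and the Ctag2l genes, stands apart on the right. Most grey points, the other X-linked probes of this window, lie near 0. Differences of probes not well above background under the null label are fitted values, not bounds.

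In the mESC, the comparison asks whether the family differed between cells with high and low Tbx3. The differences were small: they lay between -0.18 and -0.38 at the Xlr3 and Xlr5 probes, of which 2 Xlr3 probes passed the test, and between -0.04 and 0.13 at the Xlr4 and DXBay18 probes, of which none did. At a limma adjusted p under 0.05, 2 of 13 member probes were lower in Tbx3-high cells and 0 were higher, also 0 at an unadjusted p under 0.05. Of all 30693 probes tested, 11.4% were called lower and 14.5% higher, so the members' share of 2 in 13 is near the background. The median over the 13 probes was -0.18, against 0.04 over all probes tested.

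The Xlr3a probe was the first of the 2 that passed. It read 0.17, 0.23, 0.27 and 0.21 on the Tbx3-low and -0.29, -0.13, 0.05 and 0.00 on the Tbx3-high arrays, a difference of -0.31 (SE 0.08, limma adjusted p = 0.0193, n = 4 and 4). All 4 Tbx3-high arrays lay below all 4 Tbx3-low arrays, and the spread was wider among the Tbx3-high arrays (SD 0.15 against 0.04). The other was Xlr3b probe 1, at 2.90, 2.75, 2.94 and 2.96 against 2.65, 2.57, 2.70 and 2.62, a difference of -0.25 (SE 0.08, limma adjusted p = 0.0367). Xlr3b probe 2, to which both Xlr3b and Xlr3a transcripts are assigned, read 3.80, 3.77, 3.76 and 3.90 against 3.68, 3.57, 3.68 and 3.54. Its groups did not overlap either, and its difference of -0.19 did not pass (SE 0.07, limma adjusted p = 0.0827).

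None of the Xlr5 probes passed in the fit of all 12 arrays. The Xlr5a probe had the largest difference of the family, -0.38 (SE 0.13, limma adjusted p = 0.0511), at -0.09, -0.13, 0.13 and 0.24 on the Tbx3-low and -0.35, -0.40, -0.32 and -0.31 on the Tbx3-high arrays. The Tbx3-high arrays were close together and the Tbx3-low arrays split by slide row, replicates 3 and 4 lying above replicates 1 and 2. The Xlr5b probe read 2.82, 2.87, 2.94 and 2.95 against 2.73, 2.71, 2.70 and 2.70, a difference of -0.19 (SE 0.06, limma adjusted p = 0.0566). Xlr5c probe 1 and probe 2 differed by -0.25 and -0.18 (limma adjusted p = 0.239 and 0.407). Of the 13 member probes, 6 had every Tbx3-high array below every Tbx3-low array. These 6 were the Xlr3 and Xlr5 probes other than Xlr5c probe 2. Over all probes tested this held for 12.8%, and over the X-linked probes outside the family for 31.8%. Several of the 6 list the same transcripts, so they are not separate observations.

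The Xlr4 and DXBay18 probes overlapped between the groups, and none passed. The Xlr4b probe read 1.46, 1.44, 1.51 and 1.52 on the Tbx3-low and 1.63, 1.48, 1.60 and 1.53 on the Tbx3-high arrays, a difference of 0.08 (SE 0.09, limma adjusted p = 0.603). Xlr4a probes 1 and 2 differed by 0.01 (SE 0.07) and 0.13 (SE 0.24). DXBay18 probes 1, 2 and 3 differed by 0.02, -0.01 and -0.04, with SE of 0.16, 0.18 and 0.14. The signs of Xlr4a probe 1 and of the 3 DXBay18 probes changed under other scalings, background corrections or subsets of arrays. The split between the Xlr3 and Xlr5 probes and the others was noticed in these values and was not tested.

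**Figure D3:**
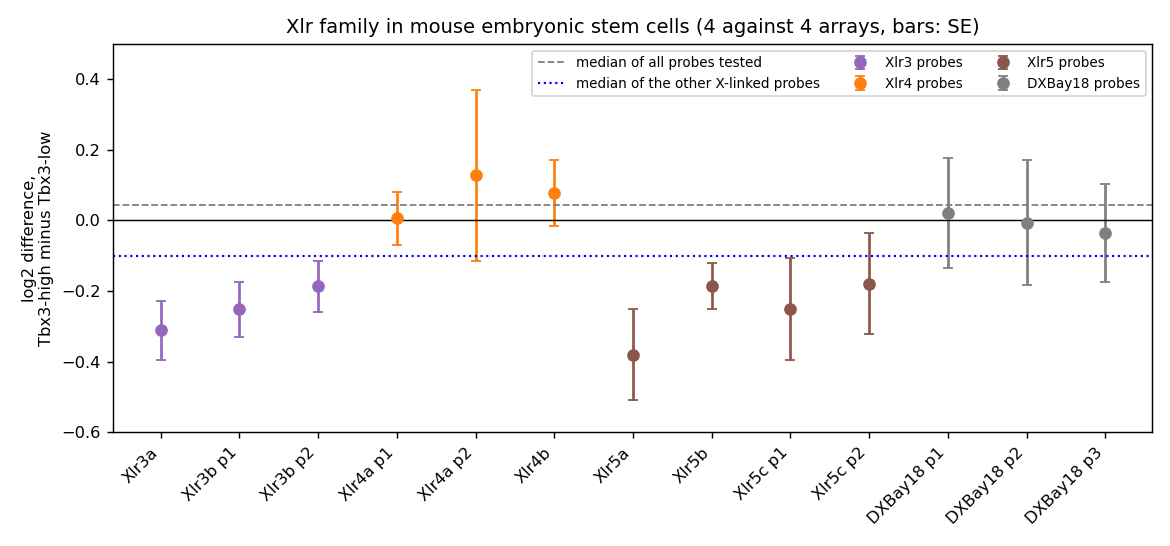
Log2 difference between Tbx3-high and Tbx3-low mESC for each Xlr family probe (y axis; x axis, probes by subfamily), with the SE of the limma fit as bars (4 against 4 arrays). The dashed line is the median of all probes tested (0.04) and the dotted line the median of the other X-linked probes (-0.10). The 7 Xlr3 and Xlr5 probes lie between -0.18 and -0.38, and the 6 Xlr4 and DXBay18 probes between -0.04 and 0.13.

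Probes elsewhere on the X chromosome were read beside this result. The 1195 X-linked probes outside the family had a median difference of -0.10, with 30.4% called lower, 7.36% higher and the rest in neither direction in Tbx3-high cells, against 3143 lower and 4351 higher of 29485 probes elsewhere. Of those X-linked probes, 31.8% had every Tbx3-high array below every Tbx3-low array, and 41.8% lay at or under the members' median of -0.18. The part of this X-linked difference in the values of the Xlr3 and Xlr5 probes was not tested. In the iPSC the X-linked probes outside the family had a median of 0.04, with 13.9% called lower and 16.6% higher. In the mESC, 31 genes within 1 Mb of the family were tested, 8 higher and 2 lower, with a median of 0.11. Over all genes tested in the mESC, 17.4% were called higher and 14.1% lower. The 6 nearest genes named above, Pnma3, Pnma5, Zfp185, Zfp275, Zfp92 and Trex2, had limma adjusted p of at least 0.148 there. Pnma3 differed by 0.07 at its brightest probe. A dimmer Pnma3 probe differed by -0.45 (limma adjusted p = 0.182), with every Tbx3-high array below every Tbx3-low array.

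The mESC result depended on how it was fitted. With only the 8 mESC arrays in the fit, 4 member probes were lower, namely Xlr3a, Xlr5a, Xlr5b and Xlr3b probe 1, and with the deposited series values 6 were lower. Without the filter on dim probes, or in either slide row alone, 0 of 13 passed, and leaving out 1 array gave 1 to 3. Xlr3b probe 1 did not pass when Tbx3-low replicate 1, 3 or 4 or Tbx3-high replicate 1, 2 or 4 was left out, which left 1 member call each time. Tbx3-low and Tbx3-high arrays lay in different columns of the slide, so column and group cannot be told apart. The same holds in the iPSC, with wild-type arrays in columns 1 and 2 and null-labelled arrays in columns 3 and 4. Within slide rows 1 and 2 the mean over the Xlr3 probes differed by -0.26 and -0.24 between Tbx3-high and Tbx3-low, over the Xlr5 probes by -0.15 and -0.35, over the Xlr4 probes by 0.07 and 0.07, and over the DXBay18 probes by 0.04 and -0.05.

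The promoters of all 9 genes (250 bases before to 50 after the start, RefSeq, GRCm38.p6) were compared to show how far the copies resemble one another outside the probes. Long identical stretches occurred within subfamilies, apart from Xlr5c: the Xlr5a and Xlr5b promoters share a run of 255 bases, Xlr4b and Xlr4c 169, Xlr4a and Xlr4b 102, and Xlr3a and Xlr3b 58, while promoters of different subfamilies share at most 15 and Xlr5c shares at most 10 with any other. The letters CCAAT, the box bound by the factor NF-Y, occurred on either strand in 7 of 9 promoters, against 37.4% of all 32851 promoters, DXBay18 and Xlr5c being the exceptions. Since the Xlr3, the Xlr4 and the Xlr5a and Xlr5b promoters share long runs among themselves, these are not 7 separate occurrences. The T-box element AGGTGTGA, the E-box CACGTG and the E2F-type site TTTCCCGC occurred in 0 of 9, against 1.28%, 7.15% and 1.07% of all promoters, and none of these motifs contains the letters of another. CpG dinucleotides numbered 16 in Xlr5a and Xlr5b, 5 to 8 in the Xlr3, Xlr4 and DXBay18 promoters and 1 in Xlr5c, against a median of 7 over all promoters. One promoter each of the Xlr3, Xlr4 and Xlr5 genes is printed to show how they differ, Xlr3b (chrX:73191929-73192228, plus strand), Xlr4b (chrX:73214083-73214382, plus strand) and Xlr5b (chrX:73148591-73148890, plus strand). Capitals mark the CCAAT letters.
Xlr3b promoter: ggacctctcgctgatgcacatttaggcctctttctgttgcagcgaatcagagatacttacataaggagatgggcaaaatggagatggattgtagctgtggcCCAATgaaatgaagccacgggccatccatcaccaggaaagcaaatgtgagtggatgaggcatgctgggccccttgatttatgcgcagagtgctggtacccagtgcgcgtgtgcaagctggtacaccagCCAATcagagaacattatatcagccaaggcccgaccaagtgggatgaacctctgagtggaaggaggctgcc
Xlr4b promoter: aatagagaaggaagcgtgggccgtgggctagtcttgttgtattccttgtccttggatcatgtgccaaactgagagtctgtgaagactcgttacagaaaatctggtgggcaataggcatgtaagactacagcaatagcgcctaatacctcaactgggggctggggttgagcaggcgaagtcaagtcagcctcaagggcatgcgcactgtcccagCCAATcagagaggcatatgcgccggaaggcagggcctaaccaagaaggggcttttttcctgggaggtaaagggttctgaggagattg
Xlr5b promoter: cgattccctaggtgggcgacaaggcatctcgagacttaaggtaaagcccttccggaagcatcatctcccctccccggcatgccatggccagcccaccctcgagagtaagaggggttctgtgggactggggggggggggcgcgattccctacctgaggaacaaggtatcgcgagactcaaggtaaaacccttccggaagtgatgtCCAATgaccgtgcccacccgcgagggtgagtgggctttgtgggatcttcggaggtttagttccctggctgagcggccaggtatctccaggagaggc

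Other Xlr-related genes had few probes. Of 13 listed relatives, 4 had a probe. Xlr itself, the founding gene of the family, was well above background only in the wild-type iPSC, at -3.73 and -3.85, and was at least 3.06-fold lower under the null label (limma adjusted p = 0.000338). Slx, an X-linked gene of the same SYCP3-related superfamily expressed in mouse spermatids, fell by 1.92 there (SE 0.40, limma adjusted p = 0.00527). Sycp3 was the only one tested in the mESC, where it averaged 1.87 in Tbx3-low and 1.12 in Tbx3-high cells and fell by 0.75 (SE 0.08, limma adjusted p = 5.79e-05). In the iPSC it differed by -0.16 (limma adjusted p = 0.35). Slxl1 was tested in neither comparison.

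Among 9 X-linked genes that are imprinted or take part in X inactivation, 6 had a probe, among them ferritin-like Fthl17 genes, which are imprinted in early mouse embryos. In the iPSC 6 were tested, 1 higher and 2 lower, against 19.9% higher and 15.4% lower over all genes. Fthl17e fell by 2.19 (SE 0.11, limma adjusted p = 3.51e-07) and Fthl17f by 1.98 (SE 0.12, limma adjusted p = 1.44e-06), while Fthl17a rose by 0.81 (SE 0.25, limma adjusted p = 0.0338). The Fthl17a value was 0.48 without null replicate 1 (limma adjusted p = 0.247), and its call was also lost without either wild-type array, so the list then held 0 higher. Xist, the RNA that coats the inactive X chromosome, was well above background on neither null-labelled array, where its bound was at least 1.10-fold lower, and it did not pass (limma adjusted p = 0.309). In the mESC, 5 were tested, 2 lower and 0 higher, against 14.1% lower and 17.4% higher over all genes. These were Fthl17a, which fell by 1.47 (limma adjusted p = 9.34e-05), and Rhox5, a homeobox gene of placenta and testis, which fell by 0.40 (limma adjusted p = 0.0376). The Rhox5 call was lost whichever of the 8 mESC arrays was left out (limma adjusted p = 0.0602 to 0.0895), leaving 1 lower each time. Fthl17e and Fthl17f differed by 0.07 and 0.11 there. The Fthl17 genes are near-identical copies and their probes may share signal.

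Germline genes that DNA methylation holds silent in somatic cells were read beside the family. In the iPSC, 29 of 30 were tested, of which 13 were lower, 3 higher and 13 passed in neither direction, with a median of -0.45 against 0.05 over all probes tested. The share over all genes was 15.4% lower and 19.9% higher. Tex101, a germ cell surface protein gene, fell by 4.18 (SE 0.26, limma adjusted p = 1.78e-06), from 1.21 and 1.66 to -3.11 and -2.38. Dazl, an RNA-binding protein of germ cells, fell by 4.07 (SE 0.16, limma adjusted p = 6.5e-08), from 3.69 and 3.44 to -0.55 and -0.47. Sycp1, which forms the transverse filaments of the synaptonemal complex, fell by 3.35 (SE 0.18, limma adjusted p = 6.56e-07), and Asz1, of the germline piRNA pathway, was at least 5.56-fold lower (limma adjusted p = 6.41e-05).

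In the mESC, 25 genes of the germline list were tested, of which 8 were lower in Tbx3-high cells, 4 higher and 13 passed in neither direction, with a median of -0.12. The share over all genes was 14.1% lower and 17.4% higher. Rhox6 and Rhox9, X-linked homeobox genes, fell by 3.45 (SE 0.08, limma adjusted p = 2.61e-09) and 3.40 (SE 0.15, limma adjusted p = 1.55e-07), and their probes may share signal. Sycp1 fell by 0.95 (limma adjusted p = 0.000195), and Sycp3 is given above. Dazl rose by 0.53 (limma adjusted p = 0.00399), opposite to Sycp1, and did not pass in slide row 2 alone. The lists were drawn up with earlier results of these arrays known, so their counts are no independent evidence of a direction.

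**Figure D4:**
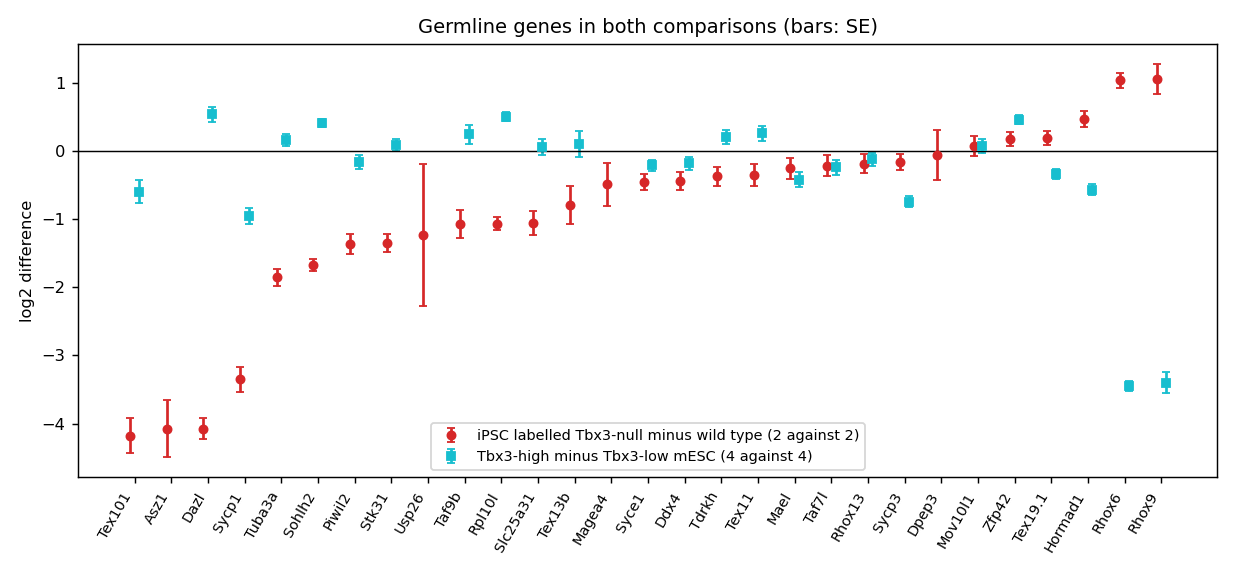
Log2 differences of the 29 germline genes tested in the iPSC (y axis; x axis, genes; red circles, null label minus wild type, 2 against 2 arrays) and of those tested in the mESC (cyan squares, Tbx3-high minus Tbx3-low, 4 against 4 arrays), with the SE of the limma fit as bars. Tex101, Asz1, Dazl and Sycp1 are the lowest in the iPSC, while Rhox6 and Rhox9 are the lowest in the mESC. The iPSC values of Asz1 and Usp26 are fitted values against a dim group.

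The last list held genes that set DNA methylation and heterochromatin. All 26 were tested in the iPSC, 7 higher, 1 lower and 18 in neither direction, with a median of 0.18, against 19.9% higher and 15.4% lower over all genes. Dnmt3b, a de novo DNA methyltransferase, rose by 1.13 (SE 0.12, limma adjusted p = 7.53e-05) and its cofactor gene Dnmt3l by 1.08 (SE 0.11, limma adjusted p = 6.35e-05). L3mbtl2, of a Polycomb complex that represses germline genes, rose by 0.63 (limma adjusted p = 0.00155), and Daxx, a histone chaperone, by 0.59 (limma adjusted p = 0.00379), a call that Daxx lost in a fit of the iPSC arrays alone. In the mESC, 4 were higher, 5 lower and 17 in neither direction, with a median of -0.07, against 17.4% higher and 14.1% lower over all genes, to which these shares are near. Zfp57, which guards imprints, rose by 1.09 (limma adjusted p = 8.2e-05), Tet2, a methylcytosine dioxygenase, by 0.89 (limma adjusted p = 0.000132) and Dnmt3l by 0.35 (limma adjusted p = 0.00746), while Dnmt3b fell by 0.35 (limma adjusted p = 0.0109). The Dnmt3l and Dnmt3b calls were lost in slide row 2 alone. How these levels relate to the Xlr family was not tested.

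Markers of other cell types were read beside the iPSC values. The summed level of 10 meiotic germ cell markers, on the linear scale in units of the 75th percentile, was 73.6 and 75.9 on the wild-type and 23.8 and 25.2 on the null-labelled arrays, with 7 of 8 markers tested lower and 0 higher under the null label, against 15.4% lower over all genes. Of the 10 markers, 8 (Ddx4, Dazl, Sycp1, Sycp3, Dmc1, Stra8, Tex101 and Prdm9) were well above background on all 4 iPSC arrays, and Sycp2 and Spo11 on no array. The summed level of 11 lymphocyte markers was 19.8 and 20.3 against 16.1 and 17.4, and of the 9 tested in the iPSC, 3 were lower and 0 higher. Of the 11, 8 (Ptprc, Cd3e, Cd3g, Cd4, Cd8a, Cd79a, Cd79b and Lck) were well above background on both wild-type arrays and 7 on both null-labelled arrays, and Rag1 on no array of any group. Cd3g, a chain of the T cell receptor complex, read -2.27 and -2.19 on the wild-type arrays and fell to values not well above background on both null-labelled arrays (limma adjusted p = 3.75e-05). The 10 feeder fibroblast markers summed to 2.34 and 2.47 against 1.17 and 1.23, with 2 of 8 tested lower and 1 higher. The 8 primitive endoderm markers summed to 0.922 and 1.01 against 0.503 and 0.534, with 4 of 8 lower and 0 higher. The 9 trophoblast markers summed to 23.3 and 25.1 against 28.3 and 30.5, with 2 of 7 tested lower and 2 higher. In the mESC the 10 meiotic markers summed to 14.9 to 16.8 in the Tbx3-low and 11.6 to 12.4 in the Tbx3-high cells, the 9 trophoblast markers to 34.2 to 36.1 against 17.7 to 21.3, and the 8 primitive endoderm markers to 1.71 to 2.12 against 3.71 to 4.99. The 10 feeder fibroblast markers summed to 2.62 to 2.81 in the Tbx3-low and 3.16 to 28.0 in the Tbx3-high cells. The highest sum was that of Tbx3-high array 2, where Thy1, a surface marker of fibroblasts and lymphocytes, read 4.73 against 0.74 to 0.96 on the other Tbx3-high arrays. The part of these cell types in the Xlr values was not tested.

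The genes whose pattern was most like the family mean were found by Pearson's r over the 12 arrays, after the means of the mESC and of the iPSC arrays had been taken off each. The 4 iPSC arrays dominate this measure, and the points share the null-labelled arrays that chose the family. The 10 highest were Nr1h5, Saa3, Gm5640, Gm5936, Crxos, Esr1, Ceacam10, Akr1e1, Pramel7 and Baiap2l1, with r from 0.994 to 0.999. Nr1h5, a nuclear receptor gene, read 3.71 and 3.35 on the wild-type and -7.64 and -7.53 on the null-labelled iPSC arrays, at least 487-fold lower, and fell by 0.38 in Tbx3-high mESC (SE 0.11, limma adjusted p = 0.0214). The Nr1h5 mESC call was lost without Tbx3-low replicate 2 or 4 or Tbx3-high replicate 3 or 4 (limma adjusted p up to 0.0564). It was also lost under 3 of 11 other alternatives (limma adjusted p up to 0.278), and in slide rows 1 and 2 alone the value was -0.24 and -0.52. Crxos, a homeobox gene of the preimplantation embryo, read 5.75 and 5.99 against -3.31 and -2.92. Saa3, an acute phase protein gene, read 1.06 and 1.25 against -7.61 and -7.44, at least 94.0-fold lower. Esr1, the estrogen receptor alpha gene, was well above background in the wild-type iPSC alone (1.14 and 1.37, at least 101-fold lower under the null label). Apart from Gm5640 and Gm5936 these 10 genes lie on other chromosomes than the X. Over the 8 mESC arrays alone, the closest of 17290 genes compared were Ackr4, Lrrc51, Gadd45a, Tnfrsf10b and A430005L14Rik, with r from 0.967 to 0.980. Tbx3-low replicate 4 had the highest family mean (1.29) and the highest Ackr4 and Lrrc51 levels (-1.52 and 0.54). The family mean was 1.18 to 1.29 on the Tbx3-low and 1.08 to 1.12 on the Tbx3-high arrays. Genes picked for following it there tend to differ between these groups, so their mESC tests are no independent evidence. In Tbx3-high cells the chemokine receptor gene Ackr4 fell by 1.84 (SE 0.35, limma adjusted p = 0.00256) and Tnfrsf10b, a death receptor gene, by 0.20 (SE 0.06, limma adjusted p = 0.0322; lost without Tbx3-low replicate 3 or 4 or Tbx3-high replicate 1, 2 or 4 and with replicate number as a block, where it was 0.0680), whereas Gadd45a, a DNA damage response gene, differed by -0.19 (limma adjusted p = 0.177). Of these 5, Lrrc51 was also lower in the null-labelled iPSC, by -0.86 (SE 0.13, limma adjusted p = 0.000918), and the other 4 did not pass there.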

How the data were processed

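The scanner files hold the processed signal, an intensity from which Agilent Feature Extraction 10.7.3.1 had removed background and spatial trend, per the file headers, and which was not scaled between arrays. RNA was isolated with RNeasy columns and 50 ng was labelled with Cy3, per the labels' protocols. Probe positions are those of mm9, per the file headers. Also deposited was a series table of log2 values, for which the scaling and centring used by the authors are unknown (array medians 6.58 to 6.61); its direction followed the scanner signal, and it served only as an alternative.

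Spots marked as outliers were left out, spots of a probe averaged, and the log2 intensity set relative to the 75th percentile of its array. Testing was limited to probes that 1 or both groups of a comparison had well above background throughout. One limma 3.58.1 model (R 4.3.3) of the 4 group means over all 12 arrays gave differences, SE and p-values, adjusted over all probes tested (Benjamini-Hochberg, threshold 0.05), and it was tested on simulated data. Where a group was dim on all its arrays, the fold is a bound against the lowest signal well above background on each of those arrays. For genes with several probes, outside the family, the text gives the brightest probe unless it names more. Of all probes, 27656 were named by accession, 3401 by symbol and 307 by synonym through the RefSeq table of GRCm38.p6, 703 kept the file's name and 23614 have none; all 9 members matched a RefSeq promoter. Named genes are every member probe, in each list the 4 genes of smallest adjusted p (in the iPSC of largest change), the 3 nearest genes on each side, Tbx3, and the 10 and 5 genes whose pattern was most like the family mean. Relatives by listed transcript or shared bases, Xlr-related genes, neighbours at an extreme, single markers of other cell types, Dazl in the mESC and the second X-linked region were named in addition, after their values were seen. The members and lists were chosen with earlier results of these data known.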

Additional observations from a re-analysis of the deposited data

Results flagged for a closer look

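In 7 of 122 groups of 4 arrays checked, 1 array stood apart from the other 3 by Dixon's criterion, a criterion that chance alone meets in about 1 in 20 groups. Of the member probes, Xlr5c probe 2 read 2.69 on Tbx3-high array 2, against 2.54 to 2.56 on the other Tbx3-high arrays. The neighbour Trex2 read -3.28 on 1 Tbx3-low array against -4.55 to -4.37 on the others. Esr1, which was not well above background in the mESC, read -7.44 on 1 Tbx3-high array against -6.99 to -6.93. Ackr4 read -1.52 on Tbx3-low array 4 against -3.35 to -3.14 on the others. Lrrc51 read 0.54 on Tbx3-low array 4 against 0.31 to 0.35, and 0.10 on 1 Tbx3-high array against 0.01 to 0.02. Sycp1 read 2.06 on 1 Tbx3-low array against 1.47 to 1.57 on the others. What set these arrays apart was not tested.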

How the results depend on the processing

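Under 11 alternatives in the mESC and 7 in the iPSC, besides leaving out each array in turn, all 13 members stayed lower under the null label and the 7 Xlr3 and Xlr5 probes stayed lower in Tbx3-high cells, in every setting in which they were tested. The member probes lower in Tbx3-high cells, 2 in the fit reported, numbered 5 with quantile normalization, 6 with the series values, 4 with the mESC arrays alone or with slide row as a block, 0 without the filter on dim probes and 0 in row 1 or row 2 alone, where each group has 2 arrays, and 1 to 3 with 1 array left out. Xlr3b probe 1 lost its call without Tbx3-low replicate 1, 3 or 4 or Tbx3-high replicate 1, 2 or 4, and Xlr3a kept its call in each of these. Xlr3a lost it with normexp, where its limma adjusted p was 0.0549 (0.0077 to 0.219 over all alternatives), and Xlr3b probe 1 kept that one. Over all probes, 2545 rose and 2170 fell in row 1 alone and 2307 and 2123 in row 2 alone (4439 and 3508 in the fit reported), and the related and germline lists had 11 calls in row 2 alone. The members' mESC median was -0.22 with quantile normalization and -0.12 in row 1 alone. Their iPSC median was -6.15 with quantile normalization, -4.18 with normexp, -4.43 with the series values, -4.23 among probes well above background on all 12 arrays (5 members) and -6.51 to -6.20 with 1 array left out, when the lone array of a group is assumed to vary like the other groups.

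Differences near 0 changed sign. With quantile normalization Xlr4a probe 1 was -0.035, DXBay18 probe 1 -0.013 and Zfp275 -0.016 in the mESC, and Zfp275 was 0.0049 and A430005L14Rik -0.0084 in the iPSC. With normexp Xlr4a probe 1 was -0.017 and DXBay18 probe 3 0.018, and with the series values Xlr4a probe 1 was -0.047, Pnma5 -0.0019, Saa3 -0.013 and Fthl17f -0.022. In row 1 alone DXBay18 probe 2 was 0.061, Gm5936 0.075, Ceacam10 0.083 and Fthl17e -0.047, and in row 2 alone Xlr4a probe 1 was -0.010, DXBay18 probe 1 -0.13 and DXBay18 probe 3 0.046. With array weights Xlr4a probe 1 was -0.0040 and Baiap2l1 0.0048. With 1 array left out, mESC values ran from -0.039 to 0.047 for Xlr4a probe 1, -0.030 to 0.054, -0.038 to 0.024 and -0.11 to 0.069 for DXBay18 probes 1, 2 and 3, -0.022 to 0.12 for Pnma3, -0.022 to 0.044 for Zfp275, -0.12 to 0.57 for Trex2, -0.10 to 0.012 for Gm5936, -0.14 to 0.0034 for Ceacam10 and -0.12 to 0.048 for Baiap2l1, and iPSC values from -0.089 to 0.026 for Zfp275, -0.10 to 2.49 for Trex2 and -0.33 to 0.0090 for Sycp3. The causes were not tested.

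Replicate number as a block left 2 member calls, with 4461 probes higher and 3546 lower. Same-numbered mESC arrays deviated together by r of 0.067 to 0.122, not all over 0.1, so they are taken to share only a number. Under the null label 6 members were not well above background, which limits their folds to bounds.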
